A study of Homo sapiens with 3 samples.

Results

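In the CHIR library, 727 of 7084 kept cells (10.3%, exact Clopper-Pearson 95% interval 9.57 to 10.99%, counting error only) carried SOX2 RNA but little or no RNA of TBXT, FOXA2 and EOMES, which mark the primitive streak. They were chosen by measured values: at least 2 SOX2 UMIs, no TBXT and no FOXA2 UMI, at most 1 EOMES UMI, and fewer than 700 UMIs per 1000000 from the stress genes DDIT4, CHAC1 and SESN2 together. A UMI marks 1 captured RNA molecule, and a kept cell had at least 2000 genes and at most 15% of its UMIs from mitochondrially encoded genes. The comparison set was the 6357 other kept cells of the same library, out of 23361 kept cells in the series.

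HES3 MIXL1:GFP cells, a human embryonic stem cell line with a green fluorescent reporter at the streak gene MIXL1, were grown as micropatterned colonies, which are discs of fixed shape on coated glass. After 24 h in mTeSR Plus, into which they had been seeded with 10 µM of the ROCK inhibitor Y-27632, colonies received 6 µM CHIR99021 (CHIR), 3 µM CHIR99021 with 100 ng/mL Activin A (CHIR+Activin), or 50 ng/mL BMP4 (BMP4), for 48 h. About 10 colonies per treatment were pooled into 1 library of 10x Genomics 3' single-cell RNA sequencing. With 1 library per treatment, treatment and library cannot be told apart, cells are not replicates, no untreated library was analysed here, and no test was made; intervals cover counting error only.

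CHIR99021 inhibits the kinase GSK3 and so stabilises beta-catenin, which carries the WNT signal into the nucleus. In the embryo, WNT, NODAL and BMP signals move epiblast cells into the primitive streak, where TBXT, EOMES and MIXL1 come on, and SOX2 is switched off in the cells that go on to mesoderm and endoderm. SOX2, with POU5F1 and NANOG, also maintains the pluripotent state, and SOX2 is kept in cells that form neural tissue.

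The kept CHIR cells held 185215378 UMIs, with a median of 21478 UMIs and 6183 genes in members and 23056 UMIs and 6314 genes in the other cells. Median mitochondrial shares were 4.94% in members and 4.61% in the other cells. The median depth of all kept cells was 22919.5 UMIs in CHIR, 17202 in CHIR+Activin and 12623 in BMP4. Kept cells of CHIR shared 12 barcodes with CHIR+Activin and 8 with BMP4, and CHIR+Activin shared 12 with BMP4.

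The same rule selected 1170 of 6876 kept cells in CHIR+Activin (17.0%, 16.1 to 17.9%) and 342 of 9401 in BMP4 (3.64%, 3.27 to 4.04%). Because a count of 0 is easier to reach in a shallow cell and 2 UMIs in a deep one, all cells were also thinned to 10000 UMIs. The shares were then 9.45% in CHIR, 13.6% in CHIR+Activin and 3.47% in BMP4, with 192, 333 and 2360 shallower cells left out. The order of the 3 libraries was unchanged, but in CHIR the cells themselves changed, since 349 of the 651 cells selected after thinning were also members by the full counts. Within CHIR, members made up 11.5% of the cells in the lowest depth quartile and 6.83% in the highest.

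Many cells lay just outside the thresholds of the rule. In CHIR, 2915 kept cells had at least 2 SOX2 UMIs, 1360 of these had no TBXT UMI, 970 also had no FOXA2 UMI, 788 also met the EOMES limit, and the stress limit left 727. The SOX2 criterion alone excluded 693 cells that met all others, TBXT alone 395, FOXA2 alone 195, EOMES alone 173 and the stress sum alone 61. Among members, 243 stood at the SOX2 minimum of 2 UMIs and 164 had 3.

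SOX2 itself had 171.9 CPM (UMIs per 1000000, summed over cells) in members and 61.0 CPM in the other cells, a difference the rule set. The 3 further markers of the label hardly separated the groups. NANOG, a pluripotency factor, had 80.1 CPM in members and 71.6 CPM in the other cells (log2 ratio 0.16, 95% interval 0.08 to 0.24). USP44, a deubiquitinase expressed in pluripotent cells, had 125 CPM in members and 93.5 CPM in the other cells (0.42, 0.36 to 0.49). NKX1-2, a homeobox gene of the caudal epiblast in mouse, had 41.7 CPM in members and 34.1 CPM in the other cells (0.29, 0.17 to 0.40). All 3 stayed under 1.5-fold, and POU5F1 had 1093 CPM in members and 1037 CPM in the other cells, so the cells are described here by the rule that chose them.

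Of 9937 genes with at least 10 CPM in either group, the rule's 7 genes left out, 118 were at least 1.5-fold higher in members (1.19%) and 144 at least 1.5-fold lower (1.45%). At 2-fold these counts were 21 (0.211%) and 53 (0.533%), and the median log2 ratio was 0.00. These counts describe the groups that the rule made and are not evidence for it. Applied to thinned cells, the rule gave 73 higher and 141 lower genes.

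The genes highest in members over other cells, among those reaching 20 CPM, included several noncoding RNAs and membrane proteins. JAKMIP2-AS1, an antisense RNA (ENSG00000280780), had 58.5 CPM in members and 18.0 CPM in the other cells, a log2 ratio of 1.70 (1.60 to 1.80). The sources used here do not state whether counting used the strand, so this value cannot be told apart from RNA of its partner gene. RMST (ENSG00000255794), a long noncoding RNA known to bind SOX2 during human neurogenesis, had 184 CPM in members and 76.3 CPM in the other cells (1.27, 1.21 to 1.32).

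Other noncoding RNAs in this group were LINC00698, with 118 CPM in members and 55.4 CPM in the other cells, and LNCPRESS1, a p53-repressed RNA of human embryonic stem cells, with 36.8 CPM in members and 18.2 CPM in the other cells. Among protein-coding genes, the orphan receptor GPR176 had 42.9 CPM in members and 17.4 CPM in the other cells. SLC24A2, a sodium, potassium and calcium exchanger, had 21.4 CPM in members and 8.74 CPM in the other cells. GRIK2, a kainate-type glutamate receptor subunit, had 23.6 CPM in members and 11.4 CPM in the other cells. Each of these was between 2.02-fold and 2.46-fold higher in members.

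The remaining genes of the 12 highest differed by a similar amount. IRX2, an Iroquois homeobox gene, had 27.5 CPM in members and 13.6 CPM in the other cells. TAGLN, transgelin, an actin-binding protein, had 112 CPM in members and 53.8 CPM in the other cells (log2 ratio 1.05, 0.98 to 1.12). MGAT4C, a glycosyltransferase of N-glycans, had 99.05 CPM in members and 46.1 CPM in the other cells. RASGRF2, a Ras exchange factor, had 57.1 CPM in members and 27.6 CPM in the other cells, and ENSG00000284294, which the files give without a symbol, had 75.8 CPM in members and 33.3 CPM in the other cells. Ratios on the higher side were thus modest, and none of the 12 was absent from the other cells.

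**Figure D1:**
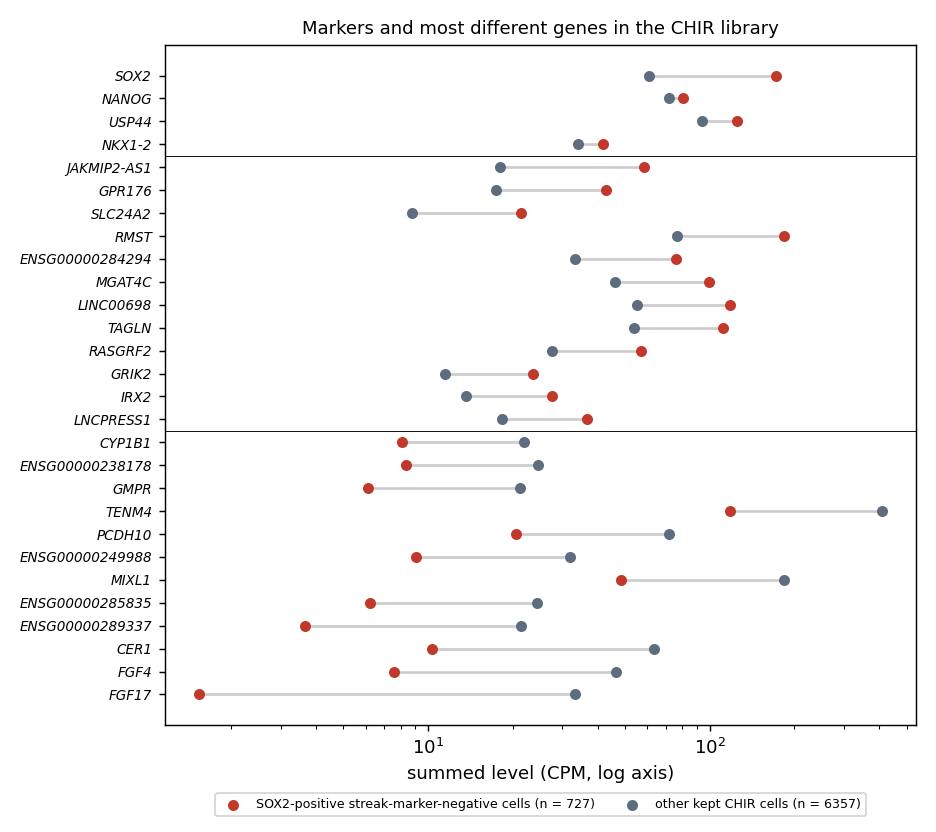
Summed level in CPM (log axis) of the 4 label markers, the 12 genes highest and the 12 genes lowest in the 727 members (red) against the 6357 other kept CHIR cells (grey). NANOG, USP44 and NKX1-2 lie close together in both groups, whereas FGF17 stands at 1.54 CPM in members and 33.4 CPM in the other cells.

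On the lower side the differences were larger, and among genes of at least 20 CPM in the higher group that the rule did not use, 3 secreted factors came first. FGF17, a fibroblast growth factor, had 1.54 CPM in members and 33.4 CPM in the other cells, 21.7-fold lower in members (log2 ratio -4.44, -5.06 to -3.89). Its 26 UMIs in members came from 11 cells. FGF4, a growth factor of epiblast and streak, had 7.56 CPM in members and 46.5 CPM in the other cells (-2.62, -2.88 to -2.37), and CER1, a secreted antagonist of NODAL, BMP and WNT, had 10.3 CPM in members and 63.2 CPM in the other cells (-2.61, -2.84 to -2.40).

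MIXL1, the homeobox gene that carries the reporter in this line, had 48.4 CPM in members and 183 CPM in the other cells (-1.92, -2.02 to -1.82), although the rule did not use it. Its RNA was 3.79-fold lower in members. Of 719 members thinned to 10000 UMIs, 525 had no MIXL1 UMI and 72 held 61.6% of its UMIs, and free RNA was not subtracted. TENM4, a teneurin adhesion protein, had 118 CPM in members and 410 CPM in the other cells, and PCDH10, a protocadherin, had 20.5 CPM in members and 71.5 CPM in the other cells. The nucleotide enzyme GMPR had 6.14 CPM in members and 21.1 CPM in the other cells, and the cytochrome CYP1B1 8.09 CPM in members and 21.9 CPM in the other cells.

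The other 4 of the 12 lowest, ENSG00000289337, ENSG00000285835, ENSG00000249988 and ENSG00000238178, carry no symbol in the files, and their log2 ratios lay between -2.55 and -1.56.

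Gene lists were read as counts beside the median over all genes, which was 0.00 on the log2 scale. Of all measured genes, 1.19% were at least 1.5-fold higher in members and 1.45% at least 1.5-fold lower. Of 12 measured primitive streak genes other than the rule's own, 8 were at least 1.5-fold lower in members and none higher, with a median log2 ratio of -0.87. GATA6, a transcription factor of mesendoderm, had 0.59 CPM in members and 16.3 CPM in the other cells (-4.79, -5.85 to -3.91), and GSC, the organizer homeobox gene, had 1.48 CPM in members and 14.9 CPM in the other cells (-3.33, -3.96 to -2.77). WNT3, which mouse embryos need to form a streak, had 33.8 CPM in members and 66.1 CPM in the other cells (-0.97). Of the 5 measured endoderm genes 3 were lower, CER1, GATA6 and GATA4, with a median of -1.48, and the first pair also stand in the streak list.

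Of 27 measured pluripotency and epiblast genes, 3 were higher, 2 lower and 21 had a positive log2 ratio, with a median of 0.16. PRDM14, a repressor of differentiation genes in human embryonic stem cells, had 11.8 CPM in members and 4.92 CPM in the other cells (1.26, 1.03 to 1.48), PODXL, the sialomucin podocalyxin, had 120 CPM in members and 63.5 CPM in the other cells (0.91), and JARID2, a partner of Polycomb complex PRC2, had 551 CPM in members and 342 CPM in the other cells (0.69). The homeobox gene OTX2 and the zinc finger gene ZIC2 went the other way. OTX2 had 4.31 CPM in members and 12.2 CPM in the other cells (-1.50, -1.86 to -1.17), and ZIC2 64.9 CPM in members and 110 CPM in the other cells (-0.76).

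Of 14 WNT feedback and beta-catenin targets none was higher and 4 were lower, with a median of 0.01. DKK1, a secreted WNT inhibitor, had 1.65 CPM in members and 17.2 CPM in the other cells (-3.38), and APCDD1, a membrane inhibitor of WNT, 3.84 CPM in members and 13.1 CPM in the other cells (-1.77). AXIN2, the feedback target in common use as a readout, had 33.7 CPM in members and 33.0 CPM in the other cells (0.03, -0.10 to 0.16). Of 13 WNT ligands and receptors 2 were lower, WNT3 and the receptor ROR2, which had 49.3 CPM in members and 130 CPM in the other cells (-1.40).

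Of 17 NODAL pathway genes 2 were lower, CER1 among them, and 12 had a negative log2 ratio, with a median of -0.21. The ligand NODAL had 148 CPM in members and 180 CPM in the other cells (-0.28, -0.34 to -0.22). Of 21 FGF genes and ERK targets 14 had a negative log2 ratio, with a median of -0.05. Among them 5 were lower, FGF17, FGF4, IER3, DUSP6 and FGF19, and 1 higher, the receptor FGFR2, with 51.2 CPM in members and 29.1 CPM in the other cells (0.81). HES1, a NOTCH target, had 19.2 CPM in members and 41.0 CPM in the other cells (-1.10).

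Few adhesion genes differed. Of 17 epithelial adhesion genes 14 had a positive log2 ratio and only CLDN3, a tight junction claudin, passed 1.5-fold, with 15.4 CPM in members and 8.27 CPM in the other cells (0.90). CDH1, E-cadherin, had 190 CPM in members and 174 CPM in the other cells, while CDH2, N-cadherin, had 75.1 CPM in members and 160 CPM in the other cells (-1.09, -1.17 to -1.01). SNAI1, a repressor of CDH1, was lower too (-0.72), but VIM, the intermediate filament vimentin, was higher, with 94.9 CPM in members and 60.7 CPM in the other cells (0.64, 0.57 to 0.72).

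Of 6 measured caudal epiblast genes 2 were lower, FGF17 and CYP26A1, an enzyme that degrades retinoic acid, which had 2.84 CPM in members and 14.5 CPM in the other cells (-2.35, -2.79 to -1.94). Of 17 axon guidance genes 4 were lower and none higher. PLXNA2, a semaphorin co-receptor, had 2.07 CPM in members and 11.5 CPM in the other cells (-2.48), and the netrin NTN1 and the ephrin receptors EPHA2 and EPHB2 had log2 ratios between -0.90 and -0.70. Of 17 extracellular matrix genes 3 were lower, the collagen COL5A2 (-0.84), the fibrillin FBN2 (-0.66) and tenascin C, TNC (-0.59).

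Lists of S phase, G2 and mitosis, glycolysis, hypoxia, the integrated stress response, p53 targets, cholesterol synthesis, BMP response, DNA methylation enzymes, ribosomal proteins and mitochondrially encoded genes had no gene past 1.5-fold in either direction. Small shifts ran through some of them: 20 of 21 cholesterol synthesis genes had a negative log2 ratio (median -0.13) and all 13 mitochondrially encoded genes a positive one (median 0.06). Mitochondrially encoded genes summed to 48407 CPM in members and 36616 CPM in cells at or over the stress limit. Classes of other cells under that limit had 46824 to 48713 CPM. Cholesterol synthesis genes summed to 2161, 2867 and 2193 to 2450 CPM in the same order. The part of the stress limit in both shifts was not tested.

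**Figure D2:**
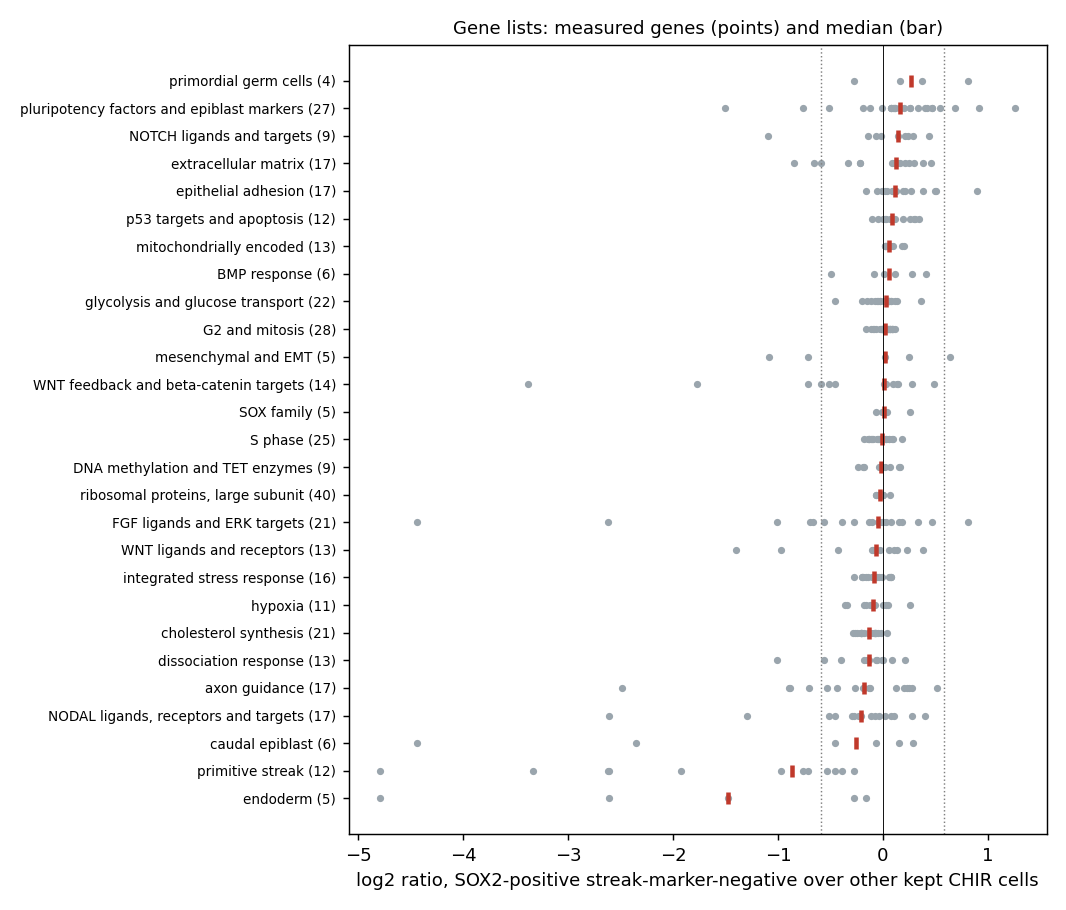
Log2 ratio of members over other kept CHIR cells for each measured gene (grey points) and the list median (red bar), for lists with at least 3 measured genes; dotted lines mark 1.5-fold and numbers in brackets are measured genes. Primitive streak (median -0.87) and endoderm (-1.48) lie to the left, and most other lists lie near 0.

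Markers of other cell types were summed in the same way, the rule's genes left out. Primitive streak markers summed to 514 CPM in members and 958 CPM in the other cells. Streak-marker-negative thus refers to the rule's genes alone. Caudal epiblast markers summed to 229 CPM in members and 302 CPM in the other cells, and axial mesoderm and node markers to 5.32 CPM and 20.5 CPM. Neural ectoderm markers summed to 112 CPM in members and 111 CPM in the other cells, and of its defining genes SOX1 had 0 UMIs in members and 2 in the other cells, while HES5 had 0 in both. Mesoderm markers summed to 75.01 CPM in members and 70.4 CPM in the other cells, with MSGN1, HAND1 and FOXF1 at 0 in members. Endoderm markers summed to 58.8 CPM in members and 141 CPM in the other cells, with SOX17, FOXA1, HNF4A and TTR at 0 in members. Amnion and trophoblast markers summed to 22.0 CPM in members and 15.4 CPM in the other cells, and neural crest and surface ectoderm markers to 9.80 CPM in members and 7.93 CPM in the other cells. Primordial germ cell markers summed to 177 CPM in members and 152 CPM in the other cells, with SOX17 at 0 in members, and naive pluripotency markers to 49.7 CPM in members and 36.6 CPM in the other cells, with KLF17 at 0 in members. For a gene with no UMI in members, 3 counts of their 16930904 UMIs correspond to 0.177 CPM, and the exact two-sided Poisson interval ends at 0.218 CPM. The sum of the neural list was thus about the same in members, where SOX2 was chosen to be high, and in the other cells.

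To see which of the other cells carried the differences, these were divided by the same criteria, a division made after the data were seen. They comprised 693 streak-marker-negative cells with fewer than 2 SOX2 UMIs, 2027 streak-marker-positive cells with at least 2, 2743 streak-marker-positive cells with fewer than 2, and 894 cells at or over the stress limit. Median depths were 21478 UMIs in members, and 16686, 32141, 22556 and 19255.5 UMIs in those 4 classes. By this count members were nearest to the other streak-marker-negative cells, with 38 genes higher and 72 lower at 1.5-fold, of 9996 measured. Against the streak-marker-positive SOX2 cells 53 were higher and 86 lower, of 9917. Against the streak-marker-positive cells with little SOX2 they were 262 and 251, of 9991, and against the cells over the stress limit 379 and 252, of 10000. The classes were not matched on depth or SOX2, which had 171.9 CPM in members and 115.7 CPM in the streak-marker-positive SOX2 cells.

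RMST followed both criteria, with 184 CPM in members, 140 CPM in the other streak-marker-negative cells, 95.3 CPM in the streak-marker-positive SOX2 cells and 47.9 CPM in the streak-marker-positive cells with little SOX2. JAKMIP2-AS1 had the same order, with 58.5, 39.4, 23.6 and 9.43 CPM in those classes. MIXL1 ran the opposite way, with 48.4, 72.0, 154 and 241 CPM in the same classes. Against the other streak-marker-negative cells all 12 highest genes kept a positive log2 ratio but only 4 passed 1.5-fold, and 9 of the 12 lowest did.

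TAGLN and NKX1-2 followed other orders. TAGLN had 112 CPM in members and between 35.5 and 64.8 CPM in the other classes, so it stayed at least 1.72-fold higher in members than in any of them. NKX1-2 had 41.7 CPM in members and 43.7 CPM in the streak-marker-positive SOX2 cells, against 29.1 CPM in the other streak-marker-negative cells and 17.9 CPM in the cells over the stress limit. Its log2 ratio against the streak-marker-positive SOX2 cells was -0.07 (-0.19 to 0.05), and the highest pair of levels was in the classes with at least 2 SOX2 UMIs. NANOG in members was within 1.25-fold of each class.

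**Figure D3:**
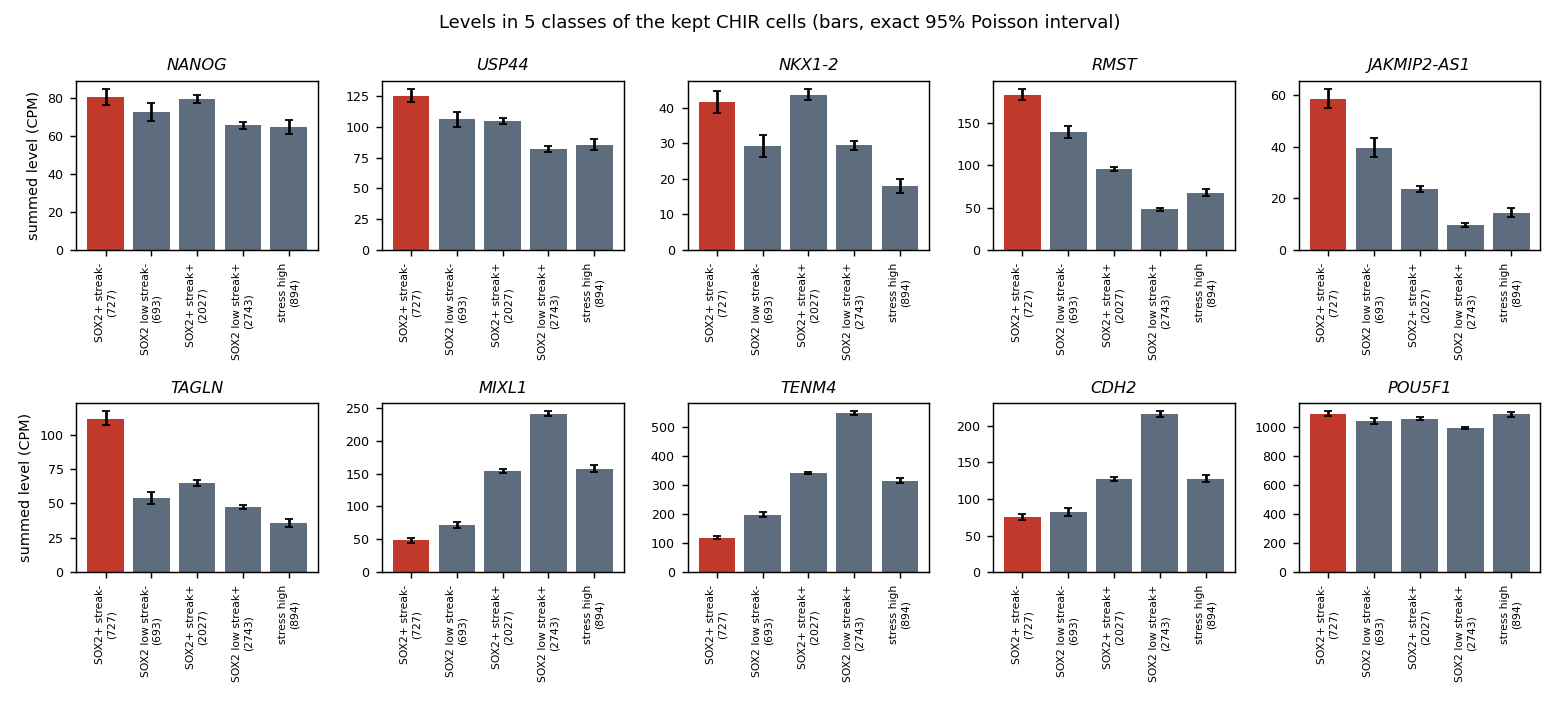
Summed level in CPM of 10 genes in members (red, left) and the 4 other classes of kept CHIR cells (grey), with exact 95% Poisson intervals for counting error. RMST and JAKMIP2-AS1 step down and MIXL1, TENM4 and CDH2 step up from members to the streak-marker-positive cells with little SOX2, and TAGLN is highest in members, at 112 CPM.

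Just inside and outside the SOX2 threshold, cells differed little. Among the cells that met the rest of the rule, TAGLN had 47.8, 60.3, 66.3, 76.8 and 151 CPM in cells with 0, 1, 2, 3 and at least 4 SOX2 UMIs. IRX2 had 8.67, 15.3, 16.8, 21.9 and 35.6 CPM in the same series, and TENM4 had 255, 139, 146, 102 and 108 CPM. RMST had 134, 146, 165, 177 and 197 CPM, whereas NANOG lay between 70.5 and 85.7 CPM with no such order. Median depth also went up along the series, with 15924.5, 17354, 19037, 20103 and 25520 UMIs per cell, and its part in these levels was not tested.

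**Figure D4:**
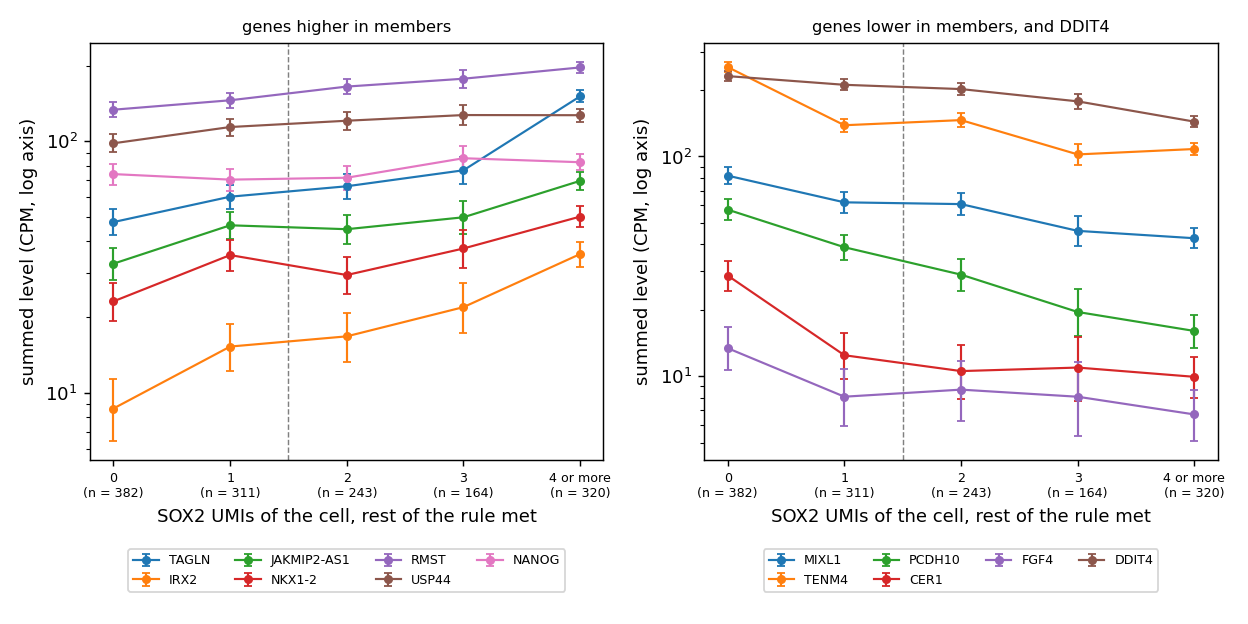
Summed level in CPM (log axis) against the SOX2 UMIs of the cell, in CHIR cells that meet the rest of the rule, with exact 95% Poisson intervals; the dashed line marks the SOX2 threshold. Cells with 1 and with 2 SOX2 UMIs lie close together for RMST, USP44 and JAKMIP2-AS1, and TAGLN reaches 151 CPM in cells with at least 4 SOX2 UMIs.

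Among members, the 320 cells with at least 4 SOX2 UMIs had 68 genes at least 1.5-fold higher and 89 lower than the 243 cells with 2, of 10022 measured. TAGLN (151 CPM against 66.3 CPM), the cardiac actin gene ACTC1 (21.3 CPM against 9.95 CPM), IRX2 and NKX1-2 (50.2 CPM against 29.4 CPM) were among the higher ones. The 209 members with 1 EOMES UMI differed from the 518 with none in 30 genes higher and 71 lower, of 9995 measured. How many of these counting error alone would give was not simulated. MIXL1 had 76.8 CPM in the cells with 1 EOMES UMI and 35.5 CPM in those with none. FGF8, a growth factor of the streak, had 75.8 CPM and 47.7 CPM in the same groups. Single UMIs of EOMES within the limit thus went with more MIXL1 RNA.

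The 117 members between 450 and 700 stress UMIs per 1000000 had 530 genes at least 1.5-fold higher and 380 lower than the 362 under 200, of 10144 measured. DUSP6, a phosphatase of ERK, had 36.3 CPM in the first and 6.71 CPM in the second, and the hypoxia genes ANKRD37 and BHLHE40 had 25.6 CPM against 6.83 CPM and 37.8 CPM against 10.8 CPM. TAGLN had 61.1 CPM against 146 CPM, NKX1-2 22.5 CPM against 53.6 CPM, AXIN2 19.1 CPM against 42.4 CPM and MYL9, a myosin light chain, 13.0 CPM against 34.3 CPM. These genes were read after the values were seen, and the smaller group holds few UMIs, so that single values carry wide counting intervals. The splits by SOX2, EOMES and stress UMIs differ in size, so their numbers of genes are not ranked.

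Variation from cell to cell was measured by the Fano factor (variance over mean) in 719 members thinned to 10000 UMIs. Over 3946 genes of at least 0.5 UMI per cell the median was 1.11, close to the 0.999 that simulated counting noise gave, and 106 genes (2.69%) reached 2. Of the 10 highest 5 were mitochondrially encoded, led by MT-CO3 (22.9), MT-CO2 (13.8) and MT-ND3 (8.48). Others among them were the nuclear RNA MALAT1 (8.31), VIM (7.10), GAL, the secreted neuropeptide galanin (6.57), and XACT, a long noncoding RNA of human pluripotent cells (6.10). At equal relative spread the Fano factor goes up with the mean, which was 150 UMIs per thinned cell for MT-CO3 and 0.910 for VIM. The order is thus not one of relative spread.

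NANOG (1.01) and USP44 (1.05) were within the range of simulated counting noise, whose highest value was 1.195, and SOX2 (0.94) is cut from below by the rule. VIM RNA was held by few cells, since the 72 members with the most VIM UMIs had 55.4% of them, and TAGLN was as uneven (57.9%), against 34.1% for NANOG. The summed levels of VIM and TAGLN were thus carried mostly by a small share of members.

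The same rule gave a similar contrast in CHIR+Activin. Since the same genes split each library, the sharing of other genes between libraries is in part set by the rule. It is not independent support for the group. There, 175 genes were at least 1.5-fold higher (1.79%) and 217 lower (2.21%) in the cells that met the rule than in the other cells, of 9801 measured. Among genes measured in both libraries, 78 of the 100 higher in CHIR members were also higher in CHIR+Activin (78.0% of the CHIR list and 48.1% of the 162 in CHIR+Activin), and 121 of 141 lower genes were shared (85.8% and 63.7%). Across 9668 genes, which are not independent replicates, Pearson's r was 0.86. No gene was called in opposite directions, and all 24 named genes had the same sign as in CHIR. For TAGLN the interval in CHIR+Activin, -0.06 to 0.09, covered both signs.

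TAGLN was the exception in size among the 12 highest. It had 84.5 CPM in the cells that met the rule and 83.6 CPM in the other cells of CHIR+Activin (log2 ratio 0.02), against 1.05 in CHIR. VIM had 56.3 CPM in the cells that met the rule and 66.0 CPM in the other cells of CHIR+Activin (-0.23), and 92.4 CPM against 123 CPM in BMP4 (-0.42). The matricellular genes CCN1 and CCN2, targets of YAP read after the values were seen, had log2 ratios of 0.71 and 0.86 in CHIR, 0.58 and 0.59 in CHIR+Activin, and 0.66 and 0.54 in BMP4.

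In BMP4 the 342 cells that met the rule stood farther from the rest, with 1019 genes higher (10%) and 818 lower (8.03%) of 10186. Of the CHIR lists, 72 of 104 higher genes (69.2%) and 109 of 129 lower genes (84.5%) were called the same way in BMP4, where the lists of 907 and 587 genes were longer. In all, 10 higher and 3 lower genes of CHIR were called in the opposite direction. NANOG, which hardly differed in CHIR, had 71.5 CPM in the cells that met the rule and 29.0 CPM in the other cells of BMP4 (1.30), and USP44 174 CPM and 37.0 CPM (2.23). NKX1-2 was on the other side, with 9.80 CPM in the cells that met the rule and 23.2 CPM in the other cells (-1.24).

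**Figure D5:**
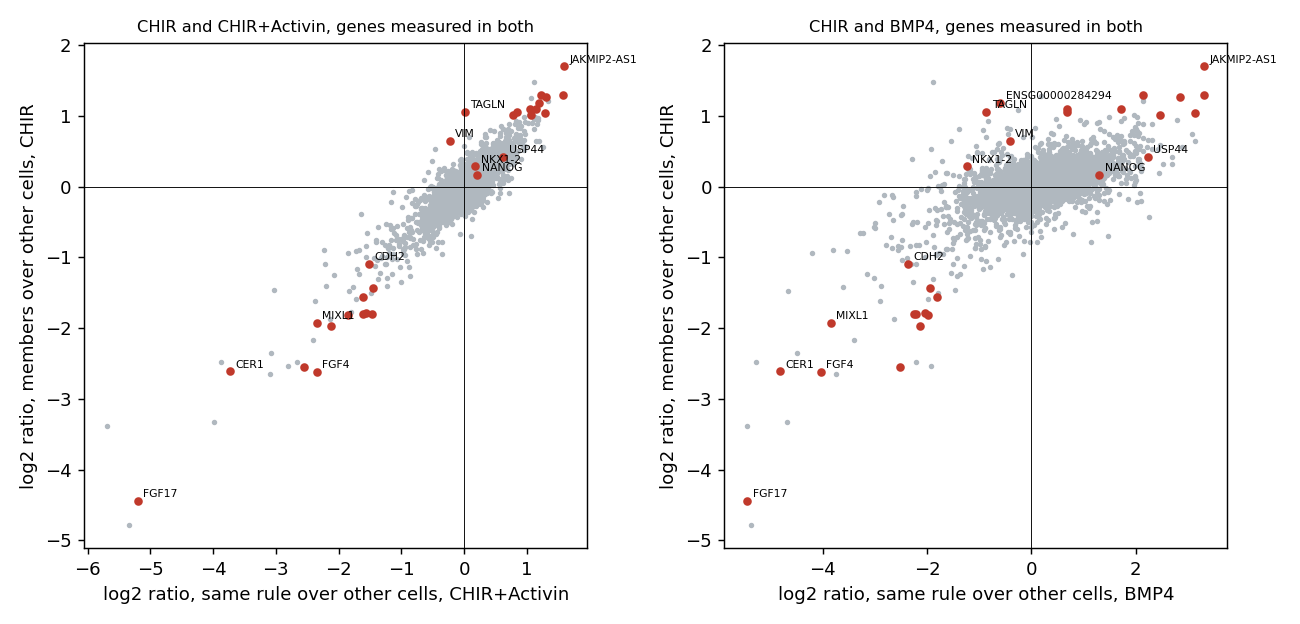
Log2 ratio of members over other kept cells in CHIR (vertical) against the ratio for the same rule in CHIR+Activin (left) and BMP4 (right), for genes measured in both; named genes are red. Most named genes keep their sign, and in BMP4 TAGLN (-0.86), NKX1-2 (-1.24) and ENSG00000284294 (-0.59) lie on the opposite side from CHIR.

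Compared directly, CHIR members and the CHIR+Activin cells that met the rule were close. Of 9877 measured genes 42 were at least 1.5-fold higher in CHIR members (0.425%) and 19 lower (0.192%), and the other kept cells of the same libraries gave 45 and 70 of 9813. LEF1, a transcription factor and target of WNT signalling, had 10.3 CPM in CHIR members and 5.06 CPM in the CHIR+Activin cells (log2 ratio 1.02, 0.67 to 1.38), and 0.65 in the other cells of these libraries. The list of WNT feedback and beta-catenin targets differed less, with a sum of 624 CPM in CHIR members and 535 CPM in the CHIR+Activin cells. In the other cells of these libraries the sums were 649 and 641 CPM. Among genes of at least 50 CPM in the higher group VIM had the highest ratio, with 94.9 CPM in CHIR members and 56.3 CPM in the CHIR+Activin cells (log2 ratio 0.75, 0.64 to 0.86), and the other cells of these libraries did not share it (-0.12). ESYT2, an endoplasmic reticulum tether, had 84.7 CPM in CHIR members and 51.7 CPM in the CHIR+Activin cells (0.71), but the other cells differed as much (0.70).

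LEFTY2, a NODAL antagonist that Activin and NODAL signals induce, had 66.6 CPM in CHIR members and 111 CPM in the CHIR+Activin cells (-0.74), beside -0.79 in the other cells. FOXD3-AS1 had 33.1 CPM in CHIR members and 61.7 CPM in the CHIR+Activin cells (-0.90), beside -0.50. Each of the 4 label markers differed by less than 1.5-fold between the CHIR members and the CHIR+Activin cells. NKX1-2 had 41.7 CPM in CHIR members and 33.2 CPM in the CHIR+Activin cells (0.33). SOX2 was held to the same minimum in both groups by the rule.

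Against the BMP4 cells that met the rule, 353 genes were higher in CHIR members (3.52%) and 238 lower (2.37%), of 10032. FGF8 had 56.5 CPM in CHIR members and 6.54 CPM in the BMP4 cells (3.11, 2.63 to 3.63), SP5, a direct WNT target, had 104 CPM and 23.4 CPM (2.15), and NODAL 148 CPM and 58.7 CPM (1.34). Of 11 measured WNT feedback and beta-catenin targets 6 were higher and 1 lower in CHIR members. ID1, a direct BMP target, had 172 CPM in CHIR members and 404 CPM in the BMP4 cells (-1.23), and the neuropeptide NTS had 31.2 CPM and 216 CPM (-2.79). The direction of FGF8, SP5, NODAL, ID1 and NTS was the same between the other kept cells of these libraries, with log2 ratios of 2.84, 1.04, 1.03, -2.79 and -4.88. NKX1-2 had 41.7 CPM in CHIR members and 9.80 CPM in the BMP4 cells (2.09).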

How the data were processed

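RNA was measured in 3 single-cell libraries, 1 per treatment. The matrices deposited by the authors hold raw UMI counts for 38606 genes. Per the file headers they were made with version 8.0.1 of Cell Ranger, and the submitters' processing notes also name Seurat. No source used here states the genome build, so genes carry the files' IDs and symbols without coordinates. CHIR and CHIR+Activin matrices held 7706 and 7391 cells. Of 1935344 BMP4 barcodes, the 9440 with at least 3739 UMIs (10% of the 99th percentile of the top 10000) were taken as cells. The cell filter removed 622, 515 and 39 barcodes in CHIR, CHIR+Activin and BMP4. Free RNA was not subtracted.

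UMIs were summed per group and scaled to CPM. Genes of at least 10 CPM in either group were compared, with exact conditional binomial 95% intervals and a floor of 3 counts. The members, lists and thresholds were chosen with earlier results of these data known. Named genes were the 4 label markers, the 12 highest and 12 lowest ratios at 20 CPM or more outside the rule's genes, up to 4 genes per list, the 8 highest and 8 lowest between like cells at 50 CPM or more, and the 10 highest Fano factors; any others, such as POU5F1, CDH1 and AXIN2, were chosen after their values were seen. Some genes that the rule names are not reported here. The automatic threshold of Scrublet (scanpy 1.11.5) marked 0 of 7084 CHIR cells and so did not work. Doublets were kept, and leaving out the 6% of highest scores (425 cells, 18 of them members) was an alternative.

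On simulated counts for members against others (9796 genes), 100% of 2-fold genes passed 1.5-fold and 0 unchanged genes did. Of the intervals, 95.1% held the simulated ratio. These values hold for that comparison alone. Ratios in the smaller groups, such as the splits by SOX2, EOMES and stress UMIs and the BMP4 cells, were not simulated. The part of variation from cell to cell in the calls was not tested. Python 3.11.15, NumPy 2.4.6, SciPy 1.17.1, pandas 2.3.3 and matplotlib 3.10.9 were used. Alternatives covered the rule's thresholds, the cell filter, doublets, depth, scaling, the minimum level and the comparison cells.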

Additional observations from a re-analysis of the deposited data

Results flagged for a closer look

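Among the 4 label markers and the 12 highest and 12 lowest genes, 3 had log2 ratios of opposite sign in BMP4 and CHIR for the cells that met the rule over the other kept cells. With 1 library each the difference was not tested. NKX1-2 had a log2 ratio of -1.24 in BMP4 and 0.29 in CHIR. TAGLN had -0.86 in BMP4 and 1.05 in CHIR. ENSG00000284294 had -0.59 in BMP4 and 1.19 in CHIR. In CHIR+Activin the 3 ratios were 0.18, 0.02 and 1.19. Other genes also had opposite signs, namely VIM (-0.42 in BMP4 and 0.64 in CHIR), PCAT14 (-1.88 in BMP4 and 1.48 in CHIR), CLDN10 (-1.61 in BMP4 and 0.19 in CHIR), ID1 (-1.14 in BMP4 and 0.41 in CHIR), CHAC1 (1.07 in BMP4 and -0.34 in CHIR), DDIT4 (1.82 in BMP4 and -0.56 in CHIR), DUSP6 (1.47 in BMP4 and -0.69 in CHIR) and LEFTY2 (0.78 in BMP4 and -0.21 in CHIR). VIM also had -0.23 in CHIR+Activin. CHAC1 and DDIT4 are genes of the rule, so their ratios were in part set by its stress limit. That limit was met by 87.4% of kept cells in CHIR and 99.9% in BMP4.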

How the results depend on the processing

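No paired analysis was possible because each treatment has 1 library, and for the same reason no replicate could be left out. No named gene or list turned round in a called direction. The share of members (10.3%) was 14.7% with at least 1 SOX2 UMI, 6.83% with at least 3, 7.31% with EOMES at 0, 7.52% and 11.1% with stress limits of 350 and 1400 per 1000000, 11.1% with none, 11.3% in cells of middle depth and 9.45% after thinning. The 118 higher and 144 lower genes became 678 and 517 at 1 CPM, 69 and 87 at 20 CPM, and 73 higher after thinning. Against the other streak-marker-negative cells they were 38 and 72, and against the streak-marker-positive SOX2 cells 53 and 86; both comparisons were added after seeing the data. In CHIR+Activin the counts were 106 and 139 at 20 CPM and 98 higher after thinning. CHIR members over CHIR+Activin like cells gave 9 and 8 at 20 CPM, 35 lower with at least 3 SOX2 UMIs, and 26 higher after thinning. At 20 CPM, 534 genes were lower in BMP4, and CHIR members over BMP4 like cells gave 209 and 135. A 20 CPM minimum leaves fewer genes measured; for the other settings the cause was not tested. Of the single-gene values, 380 stayed within the counting interval of the main ratio and 106 left it. The 380 include the settings of 1 CPM and 20 CPM, which cannot change the ratio of a single gene. List medians were judged by a fixed log2 difference, without a counting interval, and 45 stayed under it and 9 passed it. The NKX1-2 ratio ranged from -0.07 to 0.55 and that of NANOG from 0.02 to 0.23. Median Fano factor was 1.12 at 15000 UMIs per cell.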

Other observations

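Glycolysis genes and mitochondrially encoded genes took opposite shares of a member's RNA. In 719 members thinned to 10000 UMIs, Spearman's rho between the mitochondrial share of UMIs and the glycolysis share of the remaining UMIs was -0.56, given as a description because all cells share 1 library. Glycolysis and glucose transport genes made up 6063 of every 1000000 non-mitochondrial UMIs in the quartile of members with the most mitochondrial RNA and 9315 in the quartile with the least. The other 6173 CHIR cells gave -0.60, so the relation was also present outside the members, and the cells that met the rule in CHIR+Activin and BMP4 gave -0.57 and -0.38. Hypoxia genes followed the same pattern in members, with a rho of -0.54 and 696 against 1549 per 1000000.

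Several genes read after their values were seen differed in members as well. APELA, a peptide hormone of human embryonic stem cells, had 14.8 CPM in members and 6.96 CPM in the other CHIR cells, and NR5A2, a nuclear receptor, 62.3 CPM and 35.5 CPM. SERPINE2, a secreted protease inhibitor, had 119 CPM in members and 242 CPM in the other CHIR cells, with log2 ratios of -1.03 in CHIR, -1.39 in CHIR+Activin and -2.47 in BMP4. GAL had 1239 CPM in members and 2292 CPM in the other CHIR cells (-0.89).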
